A study of Mus musculus with 768 samples.

Results

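The fibulins are secreted glycoproteins of the extracellular matrix, built from repeats that resemble epidermal growth factor and bind calcium, followed by a shared C-terminal fibulin module. The longer members, fibulin-1 (Fbln1) and fibulin-2 (Fbln2), bind fibronectin, laminins and nidogens and are found in basement membranes and fibrillar matrix. The shorter members, fibulin-3 (Efemp1), fibulin-4 (Efemp2) and fibulin-5 (Fbln5), are known for elastic fibres: fibulin-4 and fibulin-5 bring tropoelastin and lysyl oxidases together on microfibrils.

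The 5 genes were taken by symbol from the 52636 genes of the count tables, and all 5 were found. Fbln1 was chosen with its increase between culture days known, and the other 4 were chosen because they belong to the same family, with earlier results of these data known for all 5. The day values of Fbln1, and those of every member between days 1 and 3, are therefore given as a description with no test. Fbln2, Fbln5, Efemp1 and Efemp2 were tested for day 7 against the earlier days. All 5 were tested between cycling and other cells of the same culture, a contrast that the choice did not use.

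The cells came from mouse cochlear organoids. Greater epithelial ridge cells, a neonatal epithelium beside the inner hair cells that secretes the tectorial membrane, were enriched by flow cytometry from mice at postnatal day 2. All mice carried Sox2-GFP, which marks Sox2-expressing cells, and Fgfr3-CreERT2 with Ai14-tdTomato, a red reporter that tamoxifen-inducible Cre switches on. A tamoxifen treatment is not named in the labels. Cultures of all 3 days received DMEM/F-12 with N-2, B-27 and ampicillin, EGF at 20 ng/mL, FGF2 at 10 ng/mL, IGF1 at 50 ng/mL, the GSK3 inhibitor CHIR99021 at 3 µM, valproic acid at 500 µM, 2-phospho-L-ascorbic acid at 100 µg/mL and the TGFβ receptor inhibitor 616452 at 2 µM. Every day thus carried the same agents, and no untreated group was analysed here.

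Organoids were dissociated on days 1, 3 and 7, and 768 cells were picked by hand and made into SmartSeq2 libraries, a full-length method without molecular identifiers. The replicate number in the labels was taken as the culture, which gave 3 cultures on day 1, 3 on day 3 and 5 on day 7. The labels do not say that cultures came from separate mice, so p-values measure only the spread between these cultures. After filtering, 711 cells remained, 37 to 86 per culture, with 26391412 to 72483565 reads per culture. Day 7 culture 5 stood apart from the other 10 by its median number of genes per cell (5681 against 6201 to 7156) and its median mitochondrial share (6.76% against 2.72% to 4.51%). CPM is the summed reads of a culture as counts per 1e6 reads after TMM scaling. The epithelial genes Epcam (761 to 1956 CPM) and Tecta, a tectorial membrane protein (1139 to 3313 CPM), were read in every culture. The sum of the 8 epithelial markers measured was lower on each later day without overlap, with 10970 to 15737 CPM on day 1, 5101 to 8806 CPM on day 3 and 2762 to 4770 CPM on day 7. Among them Sox2 had 6.81 to 19.9 CPM and Pax2 stayed under 1 CPM. The part of this change in the fibulin results was not tested.

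Because Fbln1 and Efemp2 moved in opposite directions, the 250 bases before the most upstream start site that RefSeq lists for each are shown here, written 5′ to 3′ on the strand of the gene. Capitals mark matches to the searched motifs. The Fbln1 window is chr15:85205699-85205948 (GRCm38.p6, plus strand) and the Efemp2 window is chr19:5473696-5473945 (GRCm38.p6, plus strand).

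Fbln1: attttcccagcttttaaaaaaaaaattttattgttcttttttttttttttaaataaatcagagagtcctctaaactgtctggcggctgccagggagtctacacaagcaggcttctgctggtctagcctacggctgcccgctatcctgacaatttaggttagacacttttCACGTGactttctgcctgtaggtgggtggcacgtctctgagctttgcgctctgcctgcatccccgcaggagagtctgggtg

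Efemp2: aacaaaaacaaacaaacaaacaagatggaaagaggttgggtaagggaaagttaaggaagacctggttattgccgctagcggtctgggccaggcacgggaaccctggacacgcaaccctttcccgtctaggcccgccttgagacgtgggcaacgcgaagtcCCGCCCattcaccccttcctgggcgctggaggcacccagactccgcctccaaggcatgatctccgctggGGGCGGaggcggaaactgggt

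Both strands were searched for the TATA box as TATAAA, the GC box as GGGCGG, the E-box as CACGTG, the AP-1 motif as TGANTCA, the TCF/LEF motif as CTTTGAT and the TEAD motif as GGAATG. None of these motifs overlaps another in the 2 windows. The Fbln1 window held CACGTG, 81 bases before the start site, which 6.02% of the 32851 windows of all genes also hold. The Efemp2 window held GGGCGG at 90 and 21 bases before the start, a motif present in 32.7% of all windows. GC content was 46.4% for Fbln1 and 59.2% for Efemp2, against a median of 52.4% over all windows. RefSeq lists further start sites, and these values depend on the one taken. The other Fbln1 window, which ends at base 85206007, had 62.4% GC and a GC box 11 bases before its start. The other 2 Efemp2 windows had 75.6% and 78.8% GC, with GC boxes in both. The TATA box, AP-1, TCF/LEF and TEAD motifs, present in 12.4%, 6.75%, 3.21% and 12.6% of all windows, were not in either printed sequence. A match describes letters and is no evidence of binding.

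Fbln1, which binds fibronectin and laminins in the matrix, went from nearly unread on day 1 to the highest fibulin of the cultures. Its level was 10.0, 3.10 and 11.8 CPM in day 1 cultures 1 to 3. On day 3 it was 125, 86.2 and 108 CPM in cultures 1 to 3. On day 7 cultures 1 to 5 had 329, 365, 280, 304 and 225 CPM. The lowest day 3 culture was above the highest day 1 culture, and the lowest day 7 culture, culture 5, was above the highest day 3 culture. Mean levels were 8.31 ± 4.6 (SD, n = 3), 106 ± 19.2 (SD, n = 3) and 301 ± 52.6 (SD, n = 5) CPM, so that day 7 was 36.2 times day 1 and 2.83 times day 3. The fitted log2 difference was 3.69 (SE 0.41) for day 3 over day 1, 5.19 (SE 0.43) for day 7 over day 1 and 1.50 (SE 0.35) for day 7 over day 3.

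The deposited data are split in 2 files of 384 cells each, which were treated as a possible batch. In the first file alone the day 7 over day 1 difference of Fbln1 was 4.95 on the log2 scale, and in the second file alone it was also 4.95. The first file holds 1 of the 3 day 1 cultures and the second holds 1 of the 5 day 7 cultures, culture 5. In the annotation (GENCODE M21, GRCm38) Fbln1 lies at chr15:85205949-85286535 on the plus strand, and counts here are summed over its transcripts, so its splice forms were not separated.

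**Figure D1:**
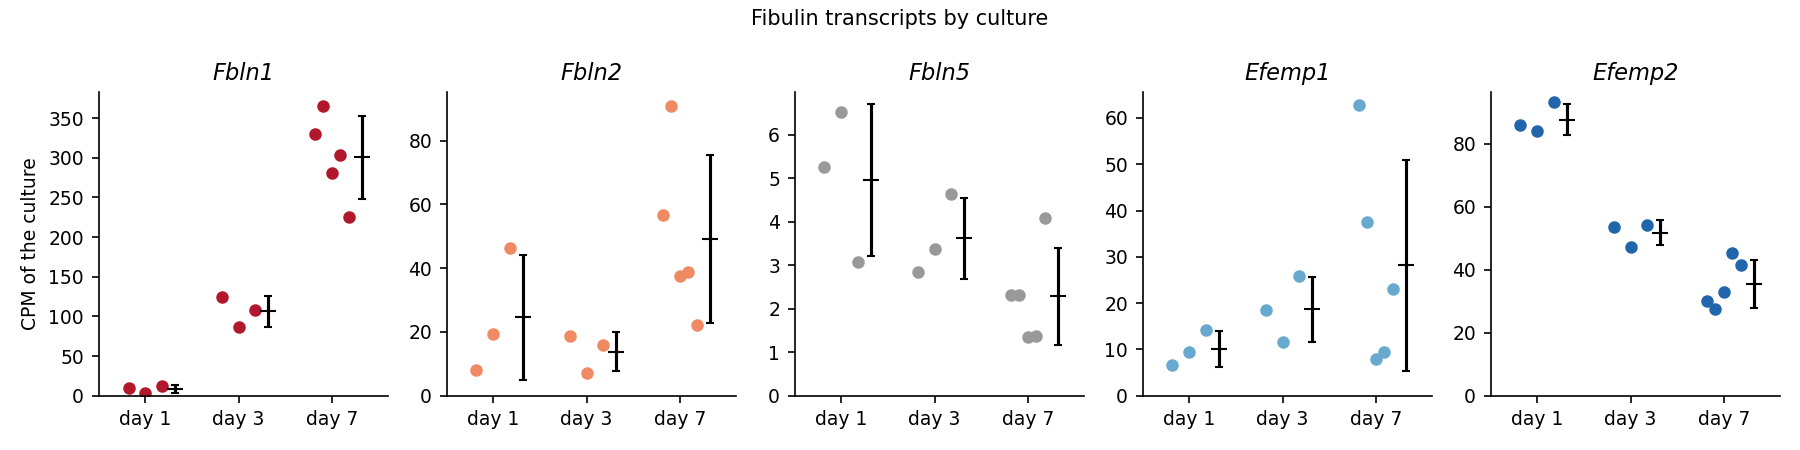
Each point is the CPM of 1 culture, by day, with a panel and an axis of its own for each fibulin, and the bar is the mean ± SD (n = 3, 3 and 5 cultures). Fbln1 goes from at most 11.8 CPM on day 1 to at least 225 CPM on day 7, while Efemp2 goes from at least 84.1 to at most 45.3 CPM and the other 3 overlap between days 1 and 7.

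Efemp2 encodes fibulin-4, which is needed for lysyl oxidase to reach elastic fibres, and it was the main fibulin on day 1. It had 85.8, 84.1 and 93.1 CPM in day 1 cultures 1 to 3. Day 3 cultures 1 to 3 had 53.6, 47.1 and 54.3 CPM. Day 7 cultures 1 to 5 had 30.1, 27.4, 33.0, 45.3 and 41.4 CPM. The 3 days did not overlap, and within day 7 cultures 4 and 5 were the highest. From day 1 to day 7 Efemp2 fell by 1.31 on the log2 scale (SE 0.19, edgeR quasi-likelihood test, Benjamini-Hochberg adjusted p = 0.00298), a level on day 1 that was 2.47 times that of day 7. In this comparison 7.11% of all 17466 genes tested had an adjusted p under 0.05 and so counted as called, and 3.56% of all genes tested were called lower on day 7. The call held without any 1 culture. It was lost, with adjusted p = 0.193 and 0.170 by the same edgeR test, in the first and in the second file alone, where the fall was 1.38 and 1.10, and it was also lost (adjusted p = 0.107, fall 1.50) without the 278 cells described below that carried mesenchymal markers.

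The later part of this decline did not pass the test. Day 7 against day 3 gave -0.54 (SE 0.19, edgeR quasi-likelihood test, adjusted p = 0.261) for Efemp2, in a comparison that called 0.968% of all genes. Day 3 against day 1, not tested for the members, gave -0.76 (SE 0.22), and 0.0115% of all genes were called there. Efemp2 lies at chr19:5473954-5482517 on the plus strand (GRCm38). Its exons share 173 bases with Mus81, a DNA repair nuclease gene on the other strand, and the sources used here do not state whether counting used strand. Mus81 had 17.0 to 29.6 CPM on day 1 and 16.4 to 35.1 CPM on day 7 (difference -0.08, SE 0.30, edgeR quasi-likelihood test, adjusted p = 0.911).

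Fbln2, a basement membrane and fibrillar matrix protein, varied widely between cultures of the same day. It had 8.08, 19.2 and 46.2 CPM in day 1 cultures 1 to 3 and 18.6, 7.13 and 15.8 CPM in day 3 cultures 1 to 3. Day 7 cultures 1 to 5 had 56.7, 90.9, 37.7, 38.6 and 22.1 CPM. Day 1 overlapped with both later days, whereas all day 7 cultures were above all day 3 cultures. The difference was 1.01 (SE 0.56, edgeR quasi-likelihood test, adjusted p = 0.304) for day 7 over day 1 and 1.83 (SE 0.58, adjusted p = 0.205) for day 7 over day 3. The day 7 over day 1 difference was 0.52 to 1.85 with 1 culture left out, the highest value without day 1 culture 3, and it was 2.74 in the first file alone and -0.56 in the second. With the DESeq2 Wald test the day 7 over day 3 difference had an adjusted p of 0.0131. Much of the day 1 level came from few cells: in culture 3, 6 of 38 cells had a Fbln2 read and a single cell held 332 of them per 200000 reads. Fbln2 lies at chr6:91212455-91272540 on the plus strand (GRCm38).

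Efemp1 encodes fibulin-3, a short fibulin known from an inherited retinal dystrophy. Its level was 6.54, 9.50 and 14.2 CPM in day 1 cultures 1 to 3 and 18.6, 11.7 and 25.8 CPM in day 3 cultures 1 to 3. Day 7 cultures 1 to 5 had 62.7, 37.4, 7.95, 9.45 and 23.1 CPM. The day 7 cultures overlapped with both other days, with cultures 1 and 2 high and cultures 3 and 4 at day 1 levels. The difference was 1.48 (SE 0.63, edgeR quasi-likelihood test, adjusted p = 0.173) for day 7 over day 1 and 0.59 (SE 0.60, adjusted p = 0.819) for day 7 over day 3. Cultures 1 and 2 of day 7 also had the 2 highest Fbln2 levels of the 11 cultures. Efemp1 lies at chr11:28853204-28926743 on the plus strand (GRCm38).

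Fbln5, which binds tropoelastin and integrins, was low throughout. It ranged from 3.07 to 6.53 CPM on day 1, from 2.84 to 4.64 CPM on day 3 and from 1.34 to 4.07 CPM on day 7. The days overlapped, and the difference was -1.12 (SE 0.54, edgeR quasi-likelihood test, adjusted p = 0.235) for day 7 over day 1 and -0.66 (SE 0.55, adjusted p = 0.753) for day 7 over day 3. Fbln5 lies at chr12:101746565-101819055 on the minus strand (GRCm38).

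Counted over the 5 members, the cultures did not overlap for Fbln1 and Efemp2 between days 7 and 1, for Fbln1, Fbln2 and Efemp2 between days 7 and 3, and for Fbln1 and Efemp2 between days 3 and 1. The same held for 17.8%, 8.13% and 18% of all genes tested, in that order. For Fbln1 nothing is read from these shares, since its day values entered the choice.

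Levels were compared between the genes after dividing CPM by the length of the exons in kilobases (4.37 for Fbln1, 6.37 for Fbln2, 6.91 for Fbln5, 2.04 for Efemp1 and 3.79 for Efemp2). These lengths join the exons of all annotated transcripts of a gene, and the order and shares of the genes depend on them. On day 1 Efemp2 had 23.1 ± 1.27 CPM per kb (SD, n = 3), above the other 4 with no overlap. Efemp1 (4.95 ± 1.91), Fbln2 (3.85 ± 3.08), Fbln1 (1.90 ± 1.05) and Fbln5 (0.716 ± 0.253) followed, and each overlapped with the next. Fbln1 led on day 3 with 24.3 ± 4.40 CPM per kb (SD, n = 3) and on day 7 with 68.9 ± 12.05 CPM per kb (SD, n = 5), on both days without overlap with the next gene. Efemp2 and Efemp1 came next on day 3 (13.6 ± 1.04 and 9.17 ± 3.46), and Efemp1, Efemp2 and Fbln2 on day 7 (13.8 ± 11.2, 9.35 ± 2.01 and 7.73 ± 4.14), in both cases with neighbours that overlapped. Fbln5 was last on each day. As a share of the summed per-kb level of the 5 genes, Fbln1 took 5.43% ± 2.82 on day 1, 48.9% ± 3.42 on day 3 and 69.5% ± 6.73 on day 7, while Efemp2 took 68.0% ± 8.5, 27.8% ± 3.24 and 9.95% ± 3.71 (SD, n = 3, 3 and 5).

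**Figure D2:**
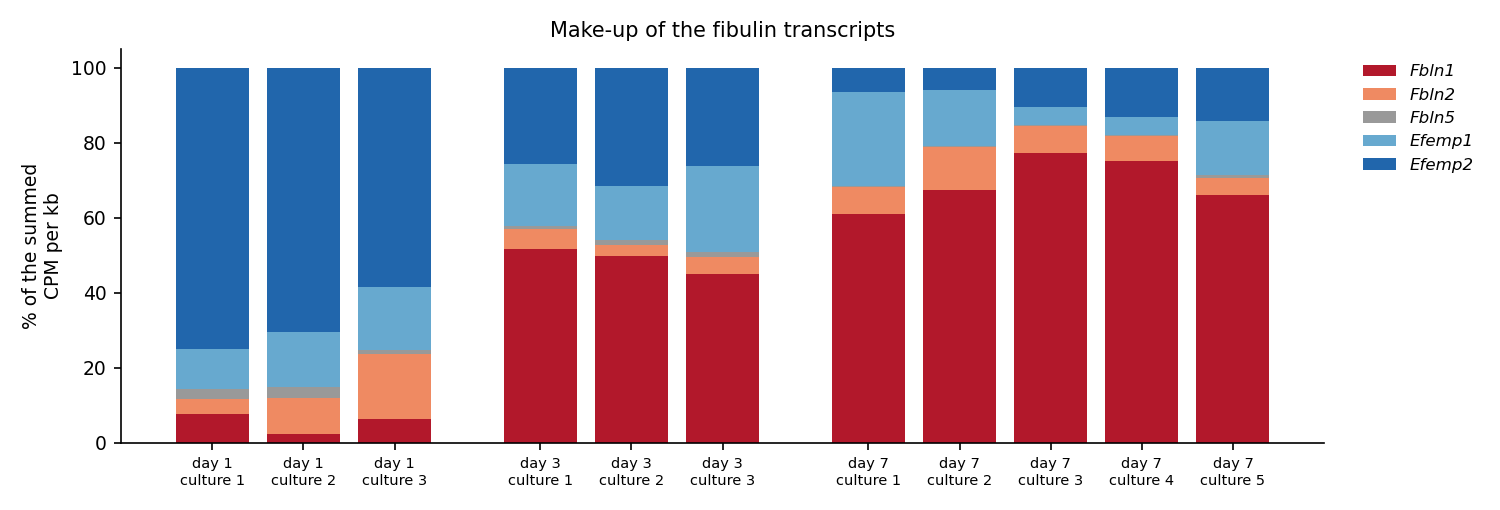
Each bar is 1 culture and shows, in percent of the summed CPM per kilobase of the 5 genes, the part of each fibulin. The Efemp2 part takes 68.0% on average on day 1 and 9.95% on day 7, and the Fbln1 part takes 5.43% and 69.5%.

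The single cells show how these levels were spread. For this, each cell was thinned to 200000 reads, which 695 of the 711 cells reached. Fbln1 was read in 19.2%, 7.06% and 21.1% of the cells of day 1 cultures 1 to 3 (10 of 52, 6 of 85 and 8 of 38 cells). On day 3 the shares were 76.2%, 57.6% and 65.3%, and on day 7 they were 94.9%, 94.6%, 87.0%, 88.5% and 77.3% in cultures 1 to 5. The exact 95% binomial intervals, which cover counting error only, reached up to 37.3% on day 1, began at 44.8% or above on day 3 and began at 66.2% or above on day 7. With thinning, days 1, 3 and 7 did not overlap in this share. Without it days 3 and 7 overlapped, since day 3 culture 1 (81.2%) was above day 7 culture 5. The interval of day 3 culture 1 also reached up to 84.8%, above the lower ends of the day 7 intervals.

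The reads per positive cell differed as well. Among cells with a Fbln1 read, the median was 4.5 to 6.5 reads in the day 1 cultures, 18 to 28.5 on day 3 and 56.5 to 76.0 on day 7. The share held by the tenth of cells with the most Fbln1 was taken from the reads of all retained cells before thinning. It was 83.3% to 99.5% of the Fbln1 reads on day 1 and only 23.0% to 29.6% on day 7. Over all thinned cells of a day, the 25th, 50th and 75th percentiles were 0, 0 and 0 reads on day 1, 0, 13.5 and 31.0 on day 3, and 28.0, 55.0 and 85.0 on day 7. The day 1 level was thus that of a minority of cells, and the day 7 level that of most cells.

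Between days 1 and 7 Efemp2 went the other way in both measures, by less. It was read in 71.1% to 78.8% of cells on day 1, 56.1% to 64.3% on day 3 and 43.2% to 52.6% on day 7. Positive cells had a median of 18 to 20 reads on day 1, 11 to 16 on day 3 and 11 to 16 on day 7. Without thinning the share on day 7 averaged 58.4%, against 49.1% ± 3.58 (SD, n = 5) with it. The unthinned shares of day 3 (54.3% to 67.1%) and day 7 (51.4% to 66.7%) overlapped. Fbln2 was read in 10.6% to 15.8% of cells on day 1 and 18.7% to 59.5% on day 7, and Efemp1 in 13.5% to 24.7% and 16.7% to 53.8%. Fbln5 was read in 7.89% to 14.1% of cells on day 1, 4.17% to 6.06% on day 3 and 1.45% to 5.13% on day 7. A read of at least 4 members in the same cell was seen in 5 of 175 cells on day 1, 9 of 222 on day 3 and 23 of 298 on day 7.

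**Figure D3:**
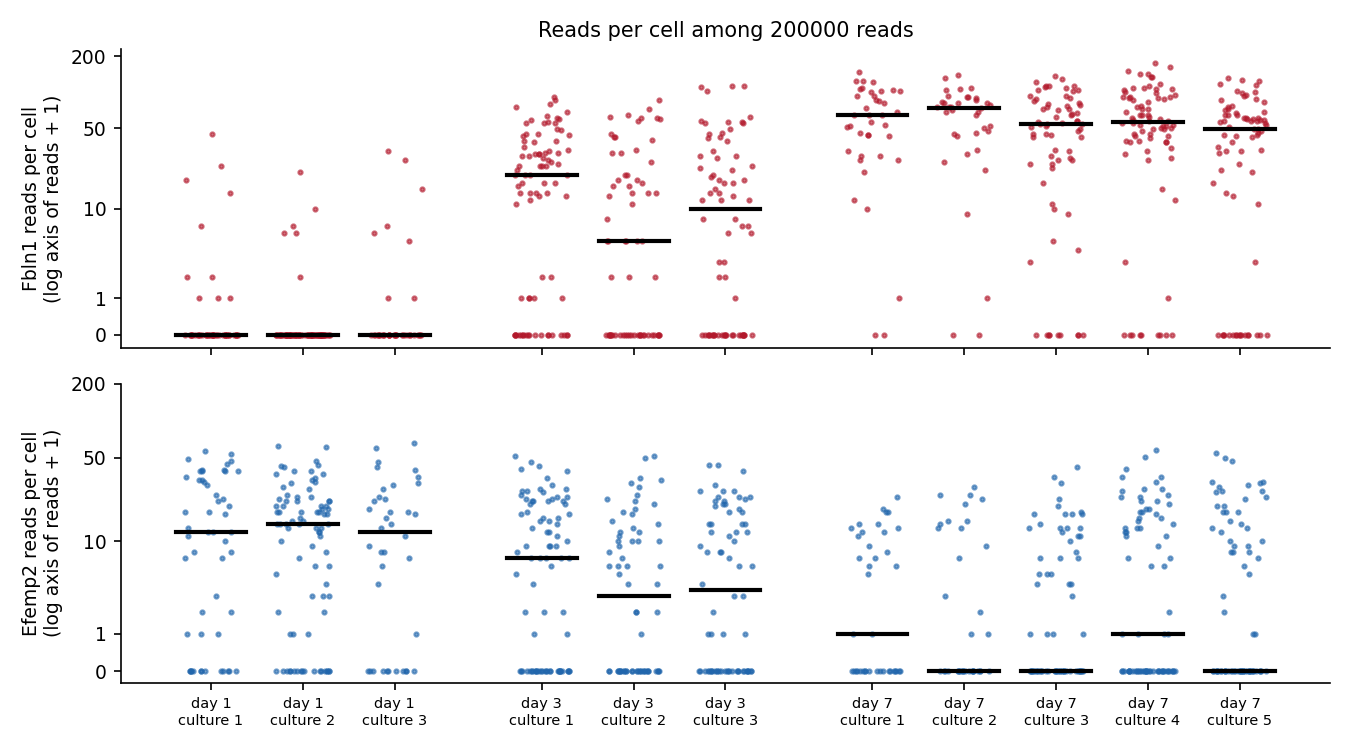
Each point is 1 cell thinned to 200000 reads, by culture, on a log axis of reads plus 1, with Fbln1 above and Efemp2 below, and the black line is the median of the culture. The Fbln1 median is 0 in the 3 day 1 cultures, while the day 7 cells lie mostly above 10 reads with a group of cells left at 0.

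Whether cells read together for 1 fibulin were also read for another was looked at within days. On day 7, 38.2% of the 259 cells with a Fbln1 read also had a Fbln2 read, against 12.8% of the 39 cells without. For Efemp1 the shares were 31.3% and 10.3%, and for Efemp2 52.9% and 28.2%. On day 3 Fbln2 was read in 23.5% of the cells with a Fbln1 read, against 8.22% of those without. Efemp1 (25.5% against 32.9%) and Efemp2 (59.7% against 61.6%) were read about as often in day 3 cells with and without Fbln1. Rank correlations over the cells of a day between Fbln1 and the other 4 lay between -0.07 and 0.17. They describe sparse reads of cells that share libraries and cultures, and no relation is read from them.

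Cycling cells were those in which, after thinning, 3 or more of 6 cell division genes were read (Birc5, Ccnb2, Cdk1, Mki67, Top2a and Tpx2). They made up 16.5% to 23.7% of cells on day 1, 56.9% to 70.2% on day 3 and 25.3% to 87.0% on day 7. In the day 1 cultures 1 to 3 Fbln1 had 35.5, 7.42 and 33.0 CPM in cycling cells and 3.92, 2.41 and 4.6 CPM in the others. In the day 3 cultures it had 140, 96.7 and 153 against 70.4, 72.8 and 53.9 CPM. In day 7 cultures 1 to 5 it had 326, 385, 303, 315 and 296 CPM in cycling cells against 335, 349, 111, 244 and 199 CPM in the others. Fbln1 was higher in the cycling cells of 10 of 11 cultures, all except day 7 culture 1. With the culture as a block, Fbln1 was higher in cycling cells by 1.12 on the log2 scale (SE 0.28, edgeR quasi-likelihood test, Benjamini-Hochberg adjusted p = 0.0133), in a comparison that called 13.8% of 13223 genes. Leaving out any 1 culture kept the call, with an adjusted p of at most 0.0372 by the same edgeR test. It was not reached in the day 3 cultures alone (1.00, adjusted p = 0.0762) or the day 7 cultures alone (0.49, adjusted p = 0.280), where fewer cultures entered.

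Fbln1 also had its day order within each class. In the cells that were not cycling it had 2.41 to 4.6 CPM on day 1, 53.9 to 72.8 CPM on day 3 and 111 to 349 CPM on day 7, with no overlap between days. Cycling cells had more genes read than the others (median 7554.5 against 6919 on day 1 and 7127 against 5896 on day 7), at median depths of 676908 against 723541 and 881074 against 879014 reads. The part of this difference in the result was not tested.

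The difference between cycling and other cells was larger for Fbln1 on day 1 than later in the fitted values (day 3 minus day 1: -1.60, SE 0.46, edgeR quasi-likelihood interaction test, adjusted p = 0.526; day 7 minus day 1: -2.08, SE 0.42, adjusted p = 0.145), and neither passed the test. None of the other 4 members passed between cycling and other cells. Efemp2 gave -0.14 (SE 0.18, edgeR quasi-likelihood test, adjusted p = 0.702), Fbln2 -0.25 (SE 0.66, adjusted p = 0.870), Efemp1 0.73 (SE 0.51, adjusted p = 0.423) and Fbln5 0.97 (SE 1.34, adjusted p = 0.731). For Efemp2 the days went opposite ways. It was higher in cycling cells in 3 of 3 day 1 cultures (114 ± 11.2 against 82.4 ± 2.5 CPM, SD, n = 3) and lower in 3 of 3 day 3 cultures (39.7 ± 6.73 against 69.7 ± 2.52 CPM, SD, n = 3). The difference between these effects was -1.296 (SE 0.36, edgeR quasi-likelihood interaction test, adjusted p = 0.511).

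**Figure D4:**
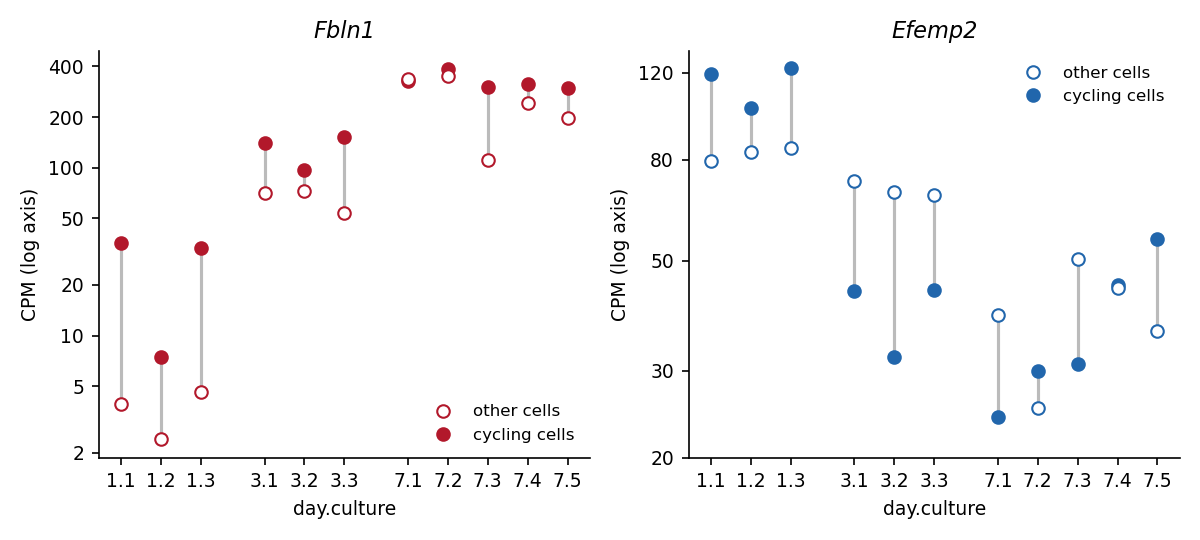
CPM on a log axis in the cycling cells (filled) and the other cells (open) of each culture, labelled by day and culture number, for Fbln1 and Efemp2, with a line joining the classes of a culture. Fbln1 is higher in the cycling cells of 10 of 11 cultures, while Efemp2 is higher there on day 1 (3 of 3 cultures) and lower on day 3 (0 of 3 cultures higher).

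Small classes of cells were described by reads of marker genes. On day 3 the 14 cells with reads of at least 2 of Pcp4, Slitrk6 and Fabp7 had a mean of 0.786 Fbln1 reads per 200000, against 22.0 in the other 208 cells. Culture 3 gave 8 of these 14 cells. On day 1 the 38 cells with these markers had a mean of 4.66 reads, against 0.613 in the other 137. Only 10 of the 38 had a Fbln1 read, and 19 of them came from culture 2. Cells with reads of at least 2 of Ptgs2, Plaur and Fosl1, genes of the early response to injury, had no Fbln1 read on day 1 (0 of 25 cells, which allows a share of cells with a read of up to 12%, for counting error only). Of these 25 cells 14 came from culture 1. On day 3 the 23 such cells had a mean of 7.13 Fbln1 reads, against 22.2 in the other 199, and 19.8 Efemp2 reads against 8.73. Culture 1 gave 15 of these 23 cells. The 174 day 7 cells with reads of at least 2 of Ogn, Ednra, Heyl and Rlbp1 had 57.8 Fbln1 reads, and the other 124 had 55.8. These are means over cells of several cultures and were not tested.

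Fibulins are also made by connective tissue cells, so markers of other cell types were measured. Of 14 mesenchymal markers, Dcn (185 to 1058 CPM) and Lum (377 to 1793 CPM), which encode small matrix proteoglycans, were high in every culture, and with them 278 of 711 cells had reads of at least 3 markers. The other 12, among them the fibrillar collagens Col1a1 (up to 2.12 CPM) and Col3a1 (0 CPM except on day 3, up to 11.3 CPM), summed to 6.51 to 33.6 CPM on day 1, 10.8 to 57.2 CPM on day 3 and 4.40 to 26.8 CPM on day 7. Single genes of this sum differed in their order of days. Col1a2, another fibrillar collagen gene, was highest on day 1, with 3.87 to 17.98 CPM. It had 0.345 to 3.03 CPM on day 3 and at most 0.614 CPM on day 7. The transcription factor genes Twist1 (at most 0.0474 CPM on day 1, 0.0586 to 1.63 CPM on day 3 and 2.68 to 11.1 CPM on day 7) and Prrx1 (0, then 0.204 to 4.91 and 0.559 to 13.2 CPM) had their highest levels on day 7, as Fbln1 did, while Postn had 0.822 to 8.90, 5.75 to 19.1 and at most 0.0736 CPM. Their part in the Fbln1 result was not tested. Without Dcn and Lum only 11 cells carried 3 markers. Leaving these 11 out, an alternative added after the data had been seen, Fbln1 was higher on day 7 than on day 1 by 5.12 and the Efemp2 difference was -1.29 (edgeR quasi-likelihood test, adjusted p = 0.00366). Markers of other cell types were summed in the same way. On days 1, 3 and 7, 5 endothelial genes summed to 2.54 to 6.39, 0.625 to 26.6 and 0 to 5.24 CPM, with Pecam1 and Kdr at 0 in every culture. The 6 immune genes summed to 4.24 to 9.03, 1.98 to 3.38 and 0.372 to 2.14 CPM, and the 5 melanocyte genes to 2.92 to 8.54, 0.361 to 6.16 and 1.41 to 4.01 CPM, with Dct, Tyr and Mlana at 0 in every culture. The 6 glial genes summed to 70.6 to 93.3, 58.3 to 95.3 and 89.9 to 110.4 CPM. The 6 neuronal genes summed to 58.2 to 83.6, 32.5 to 48.8 and 6.85 to 24.8 CPM, without overlap between days. The part of these markers in the fibulin results was not tested.

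The genes that work with fibulins were followed as lists, which were drawn up with earlier results of these data known and are not independent evidence of a direction. Of 20 elastic fibre genes 18 were tested. By fitted value 3 were higher and 15 lower on day 7 than on day 1, of which none was called higher and 5 were called lower, against 3.56% called lower of all genes. The median log2 difference was -1.31 over the 18 and 0.0028 over all genes. Fbn2, the fibrillin of developing microfibrils, fell by 2.57 (SE 0.33, edgeR quasi-likelihood test, adjusted p = 0.00168), from 209 ± 120 CPM (SD, n = 3) to 35.1 ± 11.9 CPM (SD, n = 5). Ltbp3 and Ltbp1, which hold latent TGFβ on microfibrils, fell by 1.20 (edgeR adjusted p = 0.0179) and fell by 2.25 (edgeR adjusted p = 0.0471). The microfibril-associated Mfap2 fell by 1.78 (edgeR adjusted p = 0.0448), and Mfap4, which binds elastin, had 9.16 to 17.5 CPM on day 1 and at most 0.723 CPM on day 7 (edgeR adjusted p = 0.0145). The Fbn2 call held without any 1 culture. Ltbp3 lost its call without day 1 culture 1 and Mfap4 without day 1 culture 2 (adjusted p up to 0.0838 and 0.0511 by edgeR). Mfap2 kept its call only without day 3 culture 1, day 7 culture 3 or day 7 culture 5, and Ltbp1 only without day 3 culture 1 or day 7 culture 4 (adjusted p up to 0.134 and 0.314 by edgeR). Without the 278 cells carrying mesenchymal markers, Ltbp3, Ltbp1, Mfap2 and Mfap4 lost their calls (edgeR adjusted p = 0.403, 0.189, 0.213 and 0.156), as they did in the first file alone. Fbn2 (edgeR adjusted p = 0.137), Ltbp3, Mfap2 and Mfap4 lost theirs in the second file alone, and Mfap2 with the file as a covariate (edgeR adjusted p = 0.0679).

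Between days 3 and 7, Ltbp4 rose and Fbn2 fell among the elastic fibre genes, 2 of 18 called against 0.968% of all genes. Ltbp4, the latent TGFβ binding protein that works with fibulin-4, had 18.4 ± 1.80 CPM on day 3 (SD, n = 3) and 43.8 ± 7.56 CPM on day 7 (SD, n = 5), a difference of 1.25 (SE 0.21, edgeR quasi-likelihood test, adjusted p = 0.0193). On day 1 it had 37.1 ± 1.3 CPM (SD, n = 3), so day 7 did not differ from day 1 beyond the test (0.24, edgeR adjusted p = 0.515). Leaving out culture 2 or culture 3 of day 3 ended this call. Fbn2 fell by 1.61 from day 3 to day 7 (SE 0.33, edgeR adjusted p = 0.0426), a call kept only without day 1 culture 1, day 1 culture 3 or day 7 culture 5. Both calls were lost without the 278 cells (edgeR adjusted p = 0.282 for Ltbp4 and 0.299 for Fbn2) and in each file alone, and that of Fbn2 also with the file as a covariate (edgeR adjusted p = 0.0794). Ltbp1 was called lower on day 7 with that covariate (edgeR adjusted p = 0.00644) and in the second file alone, and Mfap4 by DESeq2 (adjusted p = 0.0297). By fitted value 5 of the 18 genes were higher and 13 lower, with a median of -0.72 against 0.010 over all genes.

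Of 19 genes for proteins that bind fibulins, 18 were tested. By fitted value 5 were higher and 13 lower on day 7 than on day 1, of which none was called higher and 5 were called lower, again against 3.56% called lower of all genes, and the median was -0.74. The laminin chain Lama5 fell by 0.82 (SE 0.22, edgeR quasi-likelihood test, adjusted p = 0.0407) and the matrix protein Tnc, tenascin-C, fell by 1.97 (edgeR adjusted p = 0.0307). Ccn3, a secreted matrix-associated protein, had 2.65 to 5.39 CPM on day 1 and at most 0.0361 CPM on day 7 (edgeR adjusted p = 0.00449), and it was also lower on day 7 than on day 3 (edgeR adjusted p = 0.0218), where it had 0.469 to 6.16 CPM. Itgb3, an integrin chain, had 0.341 to 2.58 CPM on day 1 and at most 0.0181 CPM on day 7 (edgeR adjusted p = 0.00919). Leaving out cultures 1 or 3 of day 1, culture 3 of day 3, or cultures 1, 2 or 5 of day 7 ended the Lama5 call, and leaving out cultures 1 or 3 of day 1 or cultures 2 or 5 of day 7 ended that of Tnc. The day 7 against day 3 call of Ccn3 was lost without day 3 culture 3 or day 7 culture 1. Without the 278 cells carrying mesenchymal markers the day 7 against day 1 calls of Lama5, Tnc, Ccn3 and Itgb3 were lost (edgeR adjusted p = 0.270, 0.155, 0.0595 and 0.123), as they were in each file alone, and that of Lama5 also with all cells (edgeR adjusted p = 0.0537) and with limma (adjusted p = 0.0878). The later Ccn3 call was also lost without the 278 cells, without the 11 cells, with limma, with the file as a covariate (adjusted p = 0.641, 0.0749, 0.271 and 0.0708) and in each file alone. The genes of this list with the highest means over the 11 cultures, the integrin chain Itgb1 (247 ± 28.0 CPM on day 1 and 248 ± 53.2 CPM on day 7, SD, n = 3 and 5) and the syndecan Sdc4 (250 ± 92.5 and 393 ± 142 CPM), did not pass in either comparison, though Sdc4 was called higher on day 7 than on day 1 with the file as a covariate (edgeR adjusted p = 0.0433).

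Of 9 other matrix genes with similar repeats, 7 were tested, of which 2 were higher and 5 lower on day 7 than on day 1 by fitted value. Of the 7, 1 was called lower, against 3.56% called lower of all genes. The median was -1.83 over the 7 and 0.0028 over all genes. Edil3, a secreted integrin ligand, was lower on day 7 (edgeR quasi-likelihood test, adjusted p = 0.0392), with 0.190 to 2.73 CPM on day 1 and at most 0.0660 CPM on day 7, a call that remained only when day 7 culture 2 was left out. It was also lost with limma (adjusted p = 0.108) and in each file alone, while DESeq2 called it lower on day 7 than on day 3 as well (adjusted p = 0.0132). Hmcn1, hemicentin-1 (also called fibulin-6), had 21.4 ± 8.53 CPM on day 1 (SD, n = 3) and 20.7 ± 8.46 CPM on day 7 (SD, n = 5), and the integrin ligand Npnt had 20.2 ± 1.08 and 25.9 ± 3.76 CPM. Neither passed the test (edgeR adjusted p = 0.964 and 0.413).

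**Figure D5:**
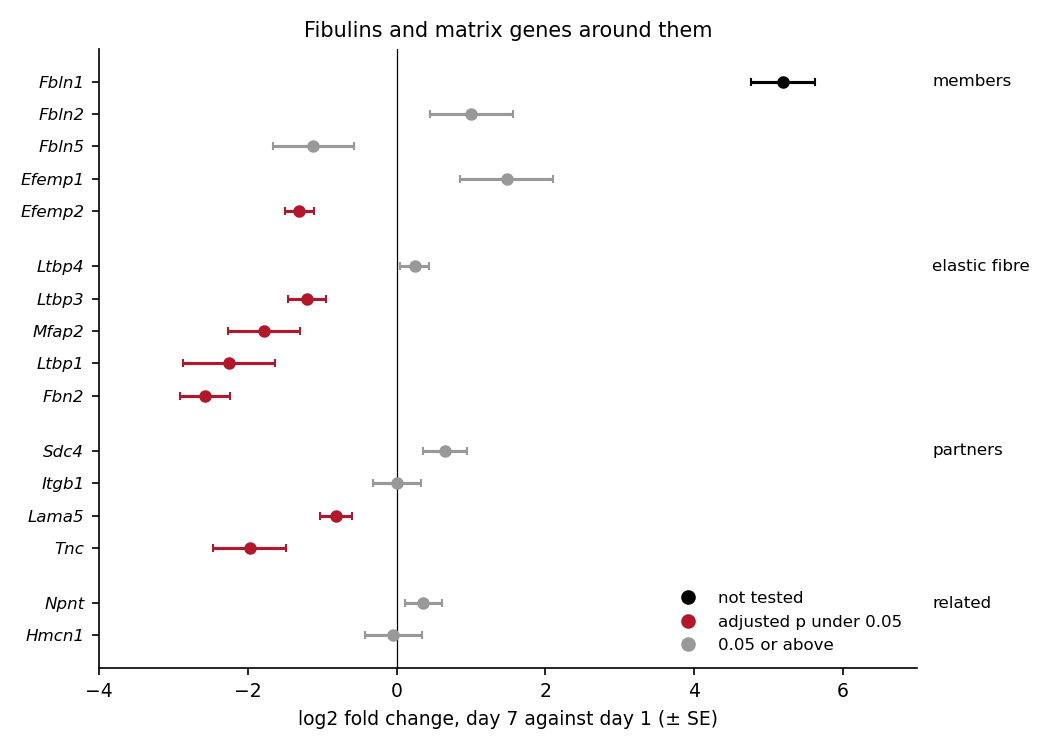
Fitted log2 difference of day 7 against day 1 with its SE for the 5 fibulins and for the named list genes with at least 1 CPM in a day 7 culture, red where the adjusted p was under 0.05, grey where it was not and black where no test was made. Fbln1 stands at 5.19, to the right of all others, while Efemp2 at -1.31 lies among the elastic fibre genes Ltbp3 (-1.20) and Mfap2 (-1.78).

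The genes whose log2 CPM was most like that of Fbln1 over the 11 cultures, by Pearson's r, were Spry1, a feedback inhibitor of growth factor signalling (0.961), Smarcd2, a chromatin remodelling subunit (0.961), Sephs2, of selenium metabolism (0.957), Hnrnpa1, an RNA-binding protein (0.957), and Ppp1r1b, a phosphatase inhibitor (0.956). They share the order of the days: Spry1 had 41.0 ± 2.66, 97.3 ± 15.1 and 153 ± 23.7 CPM on days 1, 3 and 7, and Ppp1r1b had 0.299 ± 0.471, 4.82 ± 2.54 and 35.6 ± 14.9 CPM (SD, n = 3, 3 and 5). After subtracting the mean of each day, r with Fbln1 was 0.18 to 0.48 for these genes, so most of the likeness lies between days. The 3 days form separate groups of cultures, and these values rank genes and carry no test.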

How the data were processed

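Libraries of single cells were made with SmartSeq2, and each cell is a sample. The values that the authors deposited, in 2 files, are expected counts, which are raw read estimates for each gene in each cell (10.6% of values above 0 were not whole). Per the submitters' processing notes, STAR 2.5.3a and RSEM 1.3.0 with mm10/GRCm38 were named, without their roles. The annotation release and the use of strand are not given in the sources used here. Counts were rounded. The 92 spike-in and 4 transgene rows were left out. Cells with at least 50000 reads, 1500 genes and at most 20% mitochondrial reads were kept (711 of 768), no doublet caller was run on hand-picked cells, and no cells had identical counts. Counts were summed per culture and compared by the quasi-likelihood test of edgeR 4.0.16, run under R 4.3.3, after TMM scaling and filterByExpr (17466 genes, 11 cultures in 1 fit, day as the term). A gene was called at a Benjamini-Hochberg adjusted p under 0.05. Cycling and other cells were summed per culture and fitted with the culture as a block. The fits were tested on simulated data. Alternatives were DESeq2 1.42.0, limma 3.58.1 on mean CPM per cell, RLE scaling, no filter on low counts, all cells, the file as covariate or alone, a replicate block, other cell classes and leaving out each culture. All 5 fibulins are named, as are the 5 genes most like Fbln1 with a mean of at least 20 CPM on the highest day, and from each list the called genes and the 2 with the highest mean over all cultures. The values of 1 called gene of the list of fibulin-binding proteins are not reported here, though it is in that list's counts. The members and lists were chosen with earlier results of these data known. Ccn3 is listed in the tables as Nov, matched by its RefSeq synonym. Depth was 26391412 to 72483565 reads per culture. Reads without molecular identifiers are not independent molecules, so intervals cover counting error only. Exon lengths and coordinates are from GENCODE M21, in which 4 of the 5 members have the same identifier version as in the tables, Efemp2 being a version later. Promoter windows are from RefSeq (GRCm38.p6), which held windows for all 5.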

Additional observations from a re-analysis of the deposited data

Results flagged for a closer look

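A set of 5 day 7 values was flagged where 1 culture lay far from the other 4. Chance flags about 1 in 20 sets of normally distributed values, a rate that does not hold where most values are at or near 0. Among 41 sets, 6 were flagged. Of these, 4 are single cultures that held the only or nearly the only reads of a gene that was close to 0 on day 7: culture 3 for Ccn3 (0.0361 CPM), Itgb3 (0.0181 CPM) and Mfap4 (0.723 CPM), and culture 2 for Edil3 (0.0660 CPM). The remaining 2 concern Fbln5, which few day 7 cells carried: culture 5 had 13.6 CPM in its cycling cells, and culture 2 had 4.57 CPM in its other cells.

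The difference between cycling and other cells in Efemp2 went up on day 1 and down on day 3, in every culture of both days. The effect on day 3 minus that on day 1 was -1.296 on the log2 scale (SE 0.36, edgeR quasi-likelihood interaction test, adjusted p = 0.511), so it did not pass the test over all genes.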

How the results depend on the processing

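Fibulin levels rest on 37 to 86 retained cells per culture, and Fbln5 and day 1 Fbln1 on reads of few cells. Smaller differences in these may therefore have been missed. Of the values recomputed under the alternatives, 1107 kept their direction and their side of the threshold or stayed within the spread, 141 lost a call or were a clearly lower count, 21 gained a call or were a clearly higher count, 21 moved and 35 changed sign. The cause of a change was not tested. Settings that leave some cultures or cells out also have fewer of them, and the part of this was not tested either.

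The main counts of called genes were 1241 for day 7 over 1, 169 for day 7 over 3, 2 for day 3 over 1 and 1824 between cycling and other cells. The DESeq2 Wald test called 2318, 639, 259 and 2784. Without cells carrying mesenchymal markers the day comparisons called 189, 15 and 1, in the first file alone 15, 0 and 0, and in the second file alone 125, 20 and 18. For the counts of 0, an unadjusted p under 0.05 was reached by 1010 and 875 genes with edgeR. With the file as covariate, day 7 against day 3 had 102. For day 3 against day 1, no filter on low counts gave 13, limma on mean CPM 69 and leaving out the 11 cells with mesenchymal markers other than Dcn and Lum 1. Cycling cells against others gave 563 in the day 3 cultures alone and 393 in the day 7 cultures alone. Leaving out each culture in turn gave 436 to 1380, 35 to 174 and 0 to 5 genes in the 3 day comparisons.

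The labels do not say whether the replicate numbers pair cultures of different days. Deviations from the day means correlated at -0.010 to 0.061 between same-numbered cultures and at -0.085 to 0.072 between the others. With so few cultures per day these values cannot decide whether the cultures were paired. The replicate block gave 96 called genes between days 3 and 7 and 22 between days 1 and 3, and among the fibulins it changed no call (Efemp2 at -1.54 between days 1 and 7, edgeR adjusted p = 0.00511). Among the list genes the block ended the day 7 against day 1 calls of Mfap4, Ltbp1, Itgb3, Lama5 and Edil3 (edgeR adjusted p = 0.0741, 0.121, 0.0800, 0.0962 and 0.228) and the day 7 against day 3 calls of Ccn3, Fbn2 and Ltbp4 (0.102, 0.0542 and 0.0619).

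For day 7 against day 1, Efemp2 kept its sign at -1.50 without cells carrying mesenchymal markers, -1.38 in the first file and -1.10 in the second, and lost its call in these 3 settings (edgeR adjusted p = 0.107, 0.193 and 0.170; over all 22 alternatives 1.04e-08 to 0.193). Fbln2 turned to -0.56 in the second file. Hmcn1 turned to 0.17 without the mesenchymal-marker cells, 0.24 in the second file, 0.039 with the replicate block and up to 0.27 without 1 culture (from -0.29). Itgb1, near 0 in this comparison, was -0.072 with RLE scaling and -0.072 with DESeq2, -0.051 with no filter, -0.0045 with all cells, -0.11 without the mesenchymal-marker cells, -0.29 with the file as covariate, -0.077 and -0.14 in the first and second file, and -0.12 to 0.10 without 1 culture.

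For day 7 against day 3, Fbln2 was called by DESeq2 (1.83, adjusted p = 0.0131), Fbln1 was 1.23 in the second file, and Fbln5 turned to 0.71 without the mesenchymal-marker cells and to 0.047 in the second file. Itgb1 turned to 0.22 in the second file (-0.58 to 0.36 without 1 culture), Ltbp3 to 0.11 and 0.16 in the first and second file, Npnt to -0.087 in the first file, and Tnc ranged from -0.95 to 0.20 without 1 culture. For day 3 against day 1, the first file gave 1.16 for Fbln2, -0.93 for Fbln5 and 1.46 for Efemp1, all cells gave -0.86 for Efemp2, and Fbln5 was -2.11 without the mesenchymal-marker cells.

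Between cycling and other cells, Fbln1 was 1.00 in the day 3 cultures alone and 0.49 in the day 7 cultures alone, without a call. Fbln2 was 1.51 and 0.0085 in these (-0.56 to 0.079 without 1 culture), Fbln5 was -1.74 in the day 3 cultures and -0.86 with 4 cycling genes asked for, and Efemp1 was -0.53 in the day 3 cultures.

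Shares of cells moved by more than the spread between cultures as follows. Without the mesenchymal-marker cells they were 10.5% for Fbln2 on day 1, 2.23% and 1.47% for Fbln5 on days 3 and 7, and 68.4%, 55.8% and 43.0% for Efemp2 on days 1, 3 and 7. Thinned to 100000 reads they were 23.9% for Efemp1 on day 3 and 54.5% and 44.9% for Efemp2 on days 3 and 7. With at least 3 reads asked for they were 23.8% for Efemp1 on day 3 and 68.9%, 53.7% and 43.3% for Efemp2 on the 3 days. Not thinned they were 5.24% for Fbln5 and 58.4% for Efemp2 on day 7.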
